A study of Rattus norvegicus with 12 samples.

Results

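Complement and coagulation factors are plasma proteins made mainly by hepatocytes, and 41 of their genes were followed in rat liver RNA. The members were taken by symbol from the probe annotation of an oligonucleotide array, which gave 58 probes, and each gene was represented by its brightest probe. They are 41 of 15502 named genes, on an array of 41012 distinct probes. All 41 were tested in at least 1 comparison.

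Complement is a cascade of serum proteases and adaptor proteins. It starts from antibody complexes (C1, C4 and C2), from sugar-binding lectins (mannose-binding lectins and their MASP proteases) or through the alternative pathway (factors B and D), and these routes meet at C3, whose cleavage leads to the pore-forming membrane attack complex of C5 to C9. Coagulation is a second protease cascade that ends in thrombin and a fibrin clot, held in check by antithrombin, protein C and protein S and undone by plasmin. Growth hormone (GH) acts on hepatocytes through its receptor and the transcription factor STAT5, and rats secrete it in a sex-dependent pattern: in pulses in males and nearly continuously in females.

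The study set pairs of liver RNAs against each other on 12 Agilent arrays, 2 arrays (a dye swap) for each of 6 pairs. The animals were 12-week-old Fischer 344 rats: intact males, intact females, and males and females without a pituitary (hypophysectomised, Hypox in the labels), each in pools of 3 to 4 livers. Hypophysectomised males also received GH, either once (1 pool of 4 livers, taken 30, 60 or 90 min later) or 2 times (1 pool of 5 livers, with 3 or 4 h between injections). Hypophysectomy removes the other pituitary hormones along with GH, and all animals given GH were hypophysectomised males. Each GH pool was used on both of its arrays, so the spread between GH-treated animals is not in the errors given here. For the other RNAs the labels describe a separate pool for each array of a dye swap, without tying a pool to an array. On 1 array labelled by its title as the single injection, the treatment label omits GH, and the title was followed.

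Ratios are on the log2 scale, first RNA named over second, and are given as the pair of replicate 1 and replicate 2 arrays and then as the estimate ± SE of a limma model fitted to all 12 arrays with a dye term (n = 2 arrays per comparison). A member was called where its p-value, adjusted over all probes tested in the comparison, was under 0.05. In any colour of any array 58.4% to 71.1% of probes stood well above background, and having 2 arrays per comparison limits the precision. All 8 hepatocyte markers (Alb and Apob among them) were well above background in every comparison. Whole-liver RNA mixes cell types, so fewer cells of a type and less RNA per cell cannot be told apart. The arrays of replicate 1 and replicate 2 of the 4 comparisons without GH lay on 2 slides, 1 slide for each replicate number, and all 4 arrays with GH lay on the third slide.

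Very bright probes kept a dye effect after normalization, and several members are among them. The dye coefficient was called in 16 of 41 members, 9 of the 10 brightest among them, and reached 0.86 in F2 (prothrombin, the precursor of thrombin). Over the 41 members it followed brightness (Spearman rho 0.83, a description over probes that share the same 12 arrays). The 2 arrays of F2 stand on opposite sides of 0 in all 6 comparisons, for example at 0.97 and -0.78 for intact males over females. C3, Cfi, Serping1, Kng1, C4bpa and C9 had coefficients between 0.46 and 0.83, as the plot of dye coefficients against brightness shows. Where the 2 arrays of these members differ, their estimate rests on the balance of the swap and the dye term.

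**Figure D1:**
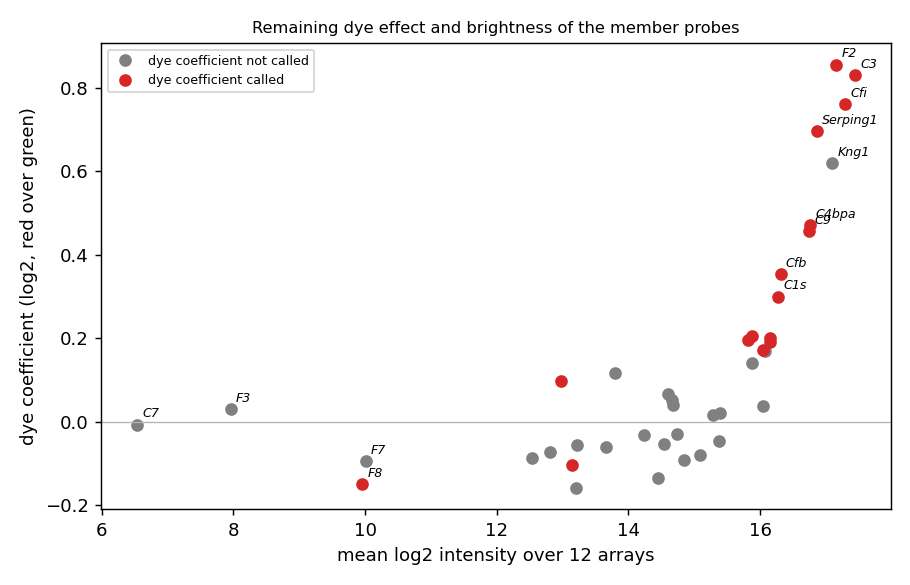
Dye coefficient (log2, Alexa 647 over Alexa 555) of each of the 41 members against its mean log2 intensity over 12 arrays; red points were called. Coefficients lie near 0 for most probes and climb to 0.86 (F2) among the brightest.

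The promoters of 4 members are shown because these members, with C9 and C7, had the largest ratios among those that rose after 1 GH injection, a choice made with the values known. RefSeq holds a promoter window (250 bases before to 50 bases after the start site, GRCr8 build) for 29 of 41 members, and for 8 of the 12 that rose. C6 (chr2:55573383-55573682, plus strand), C8a (chr5:124866582-124866881, minus strand), C8b (chr5:124763864-124764163, plus strand) and F9 (chrX:143388392-143388691, plus strand) read as follows, 5′ to 3′, with motif matches in capitals.
C6: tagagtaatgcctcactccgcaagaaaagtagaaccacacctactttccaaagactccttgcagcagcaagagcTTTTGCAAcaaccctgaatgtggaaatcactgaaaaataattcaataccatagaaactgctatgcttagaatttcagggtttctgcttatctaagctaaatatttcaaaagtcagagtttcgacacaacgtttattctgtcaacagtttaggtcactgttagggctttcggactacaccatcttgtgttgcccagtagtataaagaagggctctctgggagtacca
C8a: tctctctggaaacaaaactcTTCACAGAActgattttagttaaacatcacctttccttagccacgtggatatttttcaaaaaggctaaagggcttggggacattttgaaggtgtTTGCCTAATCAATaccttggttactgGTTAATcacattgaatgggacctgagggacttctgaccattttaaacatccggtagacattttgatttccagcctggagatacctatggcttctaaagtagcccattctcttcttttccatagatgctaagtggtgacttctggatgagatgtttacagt
C8b: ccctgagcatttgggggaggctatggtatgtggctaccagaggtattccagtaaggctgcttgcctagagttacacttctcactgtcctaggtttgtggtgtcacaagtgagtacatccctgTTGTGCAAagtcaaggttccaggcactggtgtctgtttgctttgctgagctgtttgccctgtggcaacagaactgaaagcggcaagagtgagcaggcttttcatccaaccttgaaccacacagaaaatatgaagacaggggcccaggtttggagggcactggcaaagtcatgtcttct
F9: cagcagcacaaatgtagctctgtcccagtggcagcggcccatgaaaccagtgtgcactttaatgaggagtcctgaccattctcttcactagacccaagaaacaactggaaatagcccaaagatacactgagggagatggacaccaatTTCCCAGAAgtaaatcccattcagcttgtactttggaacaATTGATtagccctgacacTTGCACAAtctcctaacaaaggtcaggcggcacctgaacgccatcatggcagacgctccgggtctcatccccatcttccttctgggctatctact
Capitals mark matches on either strand to 4 motifs of liver transcription factors: STAT5 (TTCNNNGAA), C/EBP (TTGCNNAA), HNF1 (GTTAAT) and HNF6 (ATCAAT). C8a holds all 4, and its C/EBP and HNF6 matches share 1 base. F9 holds a STAT5, an HNF6 and a C/EBP match, and C6 and C8b hold a C/EBP match only. C8a and C8b are neighbours on chromosome 5 in that build, with no other protein-coding gene between them. A STAT5 match was found in 4 of 29 member windows (13.8%), beside 8.68% of all 27457 windows. C/EBP matches were in 34.5% of member windows and 10.5% of all, HNF1 matches in 27.6% and 7.37%, and HNF6 matches in 17.2% and 7.87%. A match is a run of letters and no evidence of binding.

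**Figure D2:**
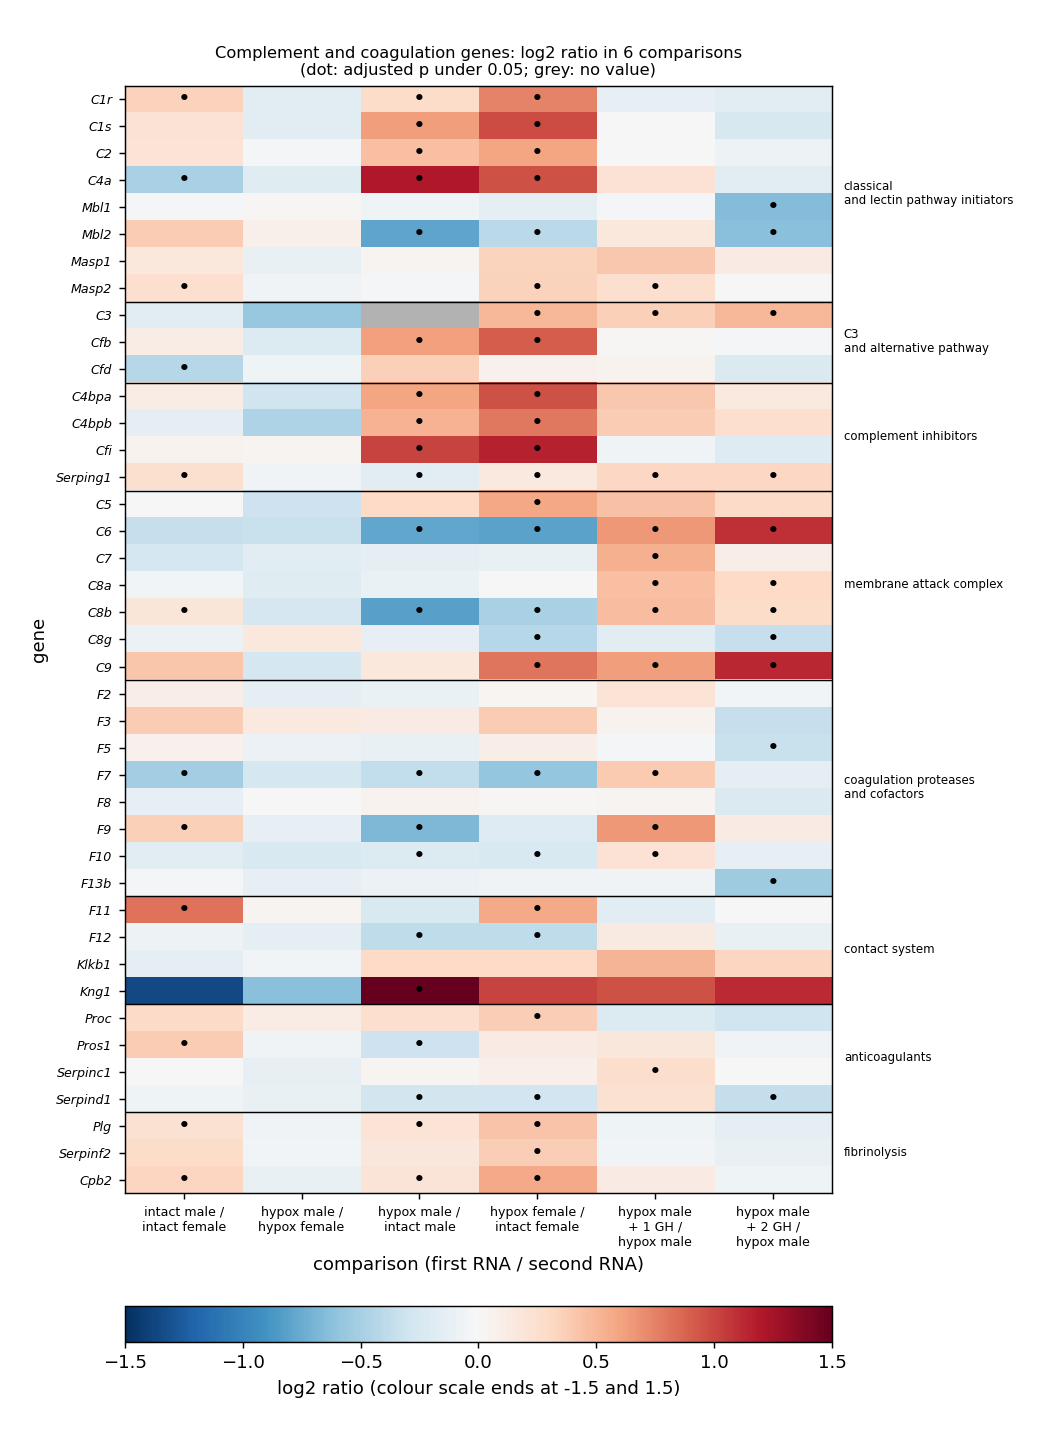
Log2 ratio of the 41 members (rows, grouped by role) in the 6 comparisons (columns, first RNA over second); a dot marks an adjusted p under 0.05 and grey marks C3 in males, which had no usable spot. No dot falls in the column of hypophysectomised males over females, and every dot of the 1-injection column is on a positive ratio.

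Intact males were set against intact females to ask which of these transcripts differ between the sexes. Coagulation factor XI (F11), a protease of the contact route, was highest in males relative to females, protein S was also higher in males, and factor VII and C4a were higher in females. In all, 12 of 41 members were called (29.3%, beside 15.5% of all probes tested), 9 higher in males (all probes 8.06%) and 3 higher in females (all probes 7.42%). The median member had a log2 ratio of 0.06, beside -0.01 over all probes, and it was 0.13 without the replicate 1 array and -0.02 without the replicate 2 array.

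F11 had array ratios of 0.70 and 0.93, both clearly above 0, and an estimate of 0.81 ± 0.08 (1.76-fold, adjusted p = 0.000443). Among vitamin K-dependent factors, Pros1 (protein S, the cofactor of activated protein C) stood at 0.21 and 0.54 (0.38 ± 0.06, adjusted p = 0.00369). F9 (factor IX, the protease lacking in haemophilia B) stood at 0.19 and 0.52 (0.36 ± 0.10, adjusted p = 0.0487), a call kept in 4 of 13 alternatives other than median centring. All 3 were higher in males on both arrays. C1r, the first protease of the C1 complex, had 0.56 and 0.14 (0.35 ± 0.07, adjusted p = 0.0139). Cpb2, the fibrinolysis inhibitor TAFI, had 0.46 and 0.17 (0.32 ± 0.06, adjusted p = 0.00696). These and Masp2 (0.16 and 0.35, estimate 0.25 ± 0.06, adjusted p = 0.0306), a protease of the lectin pathway, were higher in males on both arrays. Masp2's other probes had 0.09, 0.06 and 0.18 and were not called. Its call was kept in 5 of 13 alternatives other than median centring and was lost with the mean over probes.

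Plg, the precursor of plasmin, had 0.16 and 0.29 (0.22 ± 0.06, adjusted p = 0.0456), but its estimate turned to -0.03 where arrays were centred on their median in place of the loess step. Serping1, the inhibitor of C1, was called at 0.24 ± 0.05 (adjusted p = 0.0114) although its arrays stood at 0.93 and -0.45, and it too turned negative with median centring. Its second probe was not called, at 0.00 ± 0.06. C8b was the ninth member called higher in males, at 0.19 ± 0.05, with a negative value after median centring. Of 13 alternatives other than median centring, 3 kept the call of C8b, 5 that of Plg and 8 that of Serping1.

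Of the members higher in females, F7 (factor VII, which starts clotting with tissue factor) had array ratios of -0.58 and -0.47 (-0.52 ± 0.09, adjusted p = 0.00631). C4a, a source of the C4b that builds the classical C3 convertase, had -0.68 and -0.30 (-0.49 ± 0.10, adjusted p = 0.0146). Cfd, the protease that activates factor B and is best known from fat cells, had -0.71 and -0.14 (-0.43 ± 0.12, adjusted p = 0.0497), a call kept in 1 of 13 alternatives other than median centring. All 3 were lower in males on both arrays. Kng1 (kininogen, the source of bradykinin) had the lowest ratio, -1.35 ± 0.40 from arrays at -1.13 and -1.56, without passing the test (adjusted p = 0.0677), while its second probe was called at -1.42 ± 0.40. Both Kng1 probes carry an accession that RefSeq assigns to Kng2, a near-identical gene, so the value cannot be given to 1 of the 2 genes. C4a has a close copy too, C4b, and their signals may mix.

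Markers of macrophages also differed in this comparison: 8 of 11 were lower in males, and their summed signal was 96073 and 97064 in males against 122743 and 116973 in females. Lymphocyte markers were called lower in males in 3 of 9 cases and endothelial markers in 3 of 10, with 0 higher in either list. Of 4 adipocyte markers tested, 1 was called, Cidec, higher in males (0.94 ± 0.26). Adipoq (-2.40 and -0.34) and Fabp4 (-1.65 and 0.14) were not called, the list's median was -0.57, and its summed signal was 2896 and 2505 in males against 2887 and 1890 in females. Their part in these ratios was not tested. F11 was the only call that held in each of 13 alternatives to the processing other than median centring, and with the replicate 1 or the replicate 2 array left out 3 and 2 members were called. With median centring no member was called in any of the 6 comparisons. In intact males over females it left 261 of 25712 probes called, beside 3981 with loess.

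The same question in hypophysectomised rats gave no called member: 0 of 41 passed in limma, beside 0.949% of all probes tested, and 0 in each alternative. At an unadjusted p under 0.05, 0 were higher and 6 lower in males. Of the 41 members 33 were below 0, and the median member had -0.12, beside -0.003 over all probes. F11 stood at 0.10 and -0.02 (0.04 ± 0.08, adjusted p = 0.897) and Pros1 at -0.12 and 0.02 (-0.05 ± 0.06). F7 (-0.38 and -0.14, -0.26 ± 0.09) and C4a (-0.20 and -0.16, -0.18 ± 0.10) were below 0 on both arrays, without passing the test. C8b had the smallest adjusted p, at -0.26 and -0.23 (-0.25 ± 0.05, adjusted p = 0.0884). A miss of the threshold does not show that the sexes were alike, and the difference between intact and hypophysectomised rats is tested below. Macrophage markers were called lower in males in 4 of 11 cases here as well, and erythroid markers in 2 of 3.

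**Figure D3:**
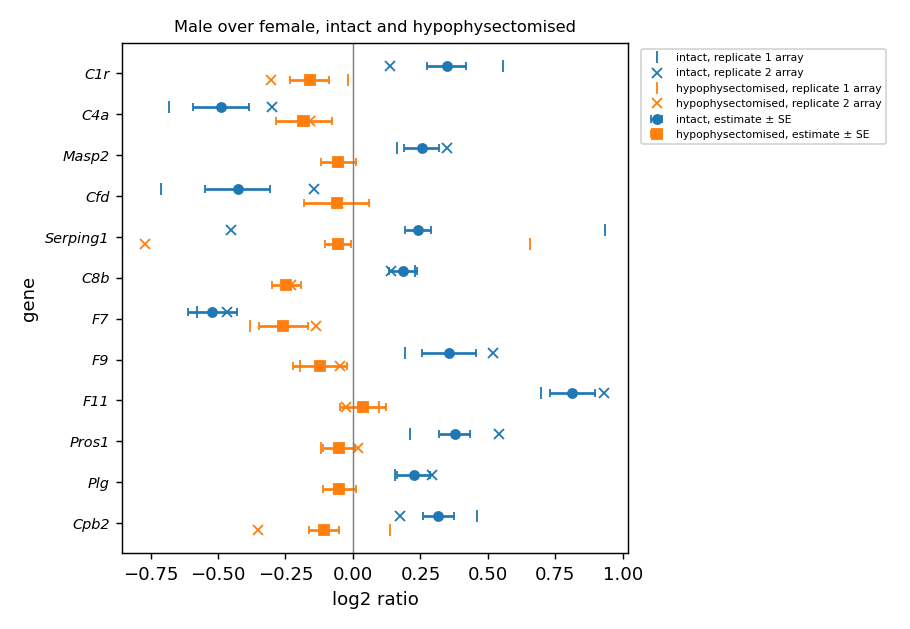
Log2 ratio of males over females in intact (blue circles) and hypophysectomised rats (orange squares) for the 12 members called in intact rats; filled symbols are estimates ± SE, ticks and crosses the 2 arrays. F11 moves from 0.81 in intact to 0.04 in hypophysectomised rats, and Serping1 shows 1 array on each side of 0.

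Hypophysectomy was compared with the intact state in each sex, with no RNA shared between the male and the female comparison. In both sexes the early classical pathway (C1s, C2, C4a), factor B and the inhibitors Cfi, C4bpa and C4bpb rose, while C6, C8b, Mbl2 and factors VII, X and XII fell. In males 21 of 39 members tested were called (53.8%, beside 37.5% of all probes), 11 up (all probes 19%) and 10 down (all probes 18.5%). In females 26 of 41 were called (63.4%, beside 36.3% of all probes), 18 up (17.9%) and 8 down (18.4%). Of 39 members tested in both sexes, 10 were called up in both and 7 down in both, and these 17 are 43.6% of the members tested, beside 24.7% of all probes. They are 81% of the male calls (63.2% over all probes) and 68% of the female calls (68.2%).

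Among the initiators of the classical pathway, C4a had array ratios of 1.35 and 1.05 in males (1.20 ± 0.10, 2.3-fold, adjusted p = 0.000104) and 1.06 and 0.85 in females (0.95 ± 0.10, adjusted p = 0.000314). C1s, the protease that C1r activates, had 0.39 and 0.86 in males (0.62 ± 0.10, adjusted p = 0.00207) and 0.64 and 1.32 in females (0.98 ± 0.10, adjusted p = 0.000241). Both stood above 0 on all 4 arrays. C2, the protease part of the C3 convertase, was above 0 on all 4 arrays, at 0.43 and 0.48 in males (0.46 ± 0.06, adjusted p = 0.000991) and 0.54 and 0.65 in females (0.60 ± 0.06, adjusted p = 0.000278). C1r had 0.04 and 0.50 in males (0.27 ± 0.07, adjusted p = 0.0205) and 0.65 and 0.84 in females (0.74 ± 0.07, adjusted p = 0.000186). C1r and C1s are adjacent genes on chromosome 4, and C2 and Cfb are adjacent on chromosome 20.

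The lectin pathway did not share that direction. Mbl2, a mannose-binding lectin, fell in both sexes, with -0.86 and -0.73 in males (-0.79 ± 0.13, adjusted p = 0.0023) and -0.35 and -0.47 in females (-0.41 ± 0.13, adjusted p = 0.04). Mbl1, the other mannose-binding lectin, was not called, at -0.06 ± 0.07 and -0.14 ± 0.07. Masp2 was called up in females only (0.43 and 0.26, estimate 0.35 ± 0.06, adjusted p = 0.00399), and 2 of its 3 other probes were called in the opposite direction, at -0.25 ± 0.07 and -0.22 ± 0.07.

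At the C3 step, Cfb (factor B, the protease part of the alternative convertase) rose in males, at 0.39 and 0.84 (0.62 ± 0.10, adjusted p = 0.00234), and in females, at 0.60 and 1.21 (0.90 ± 0.10, adjusted p = 0.000382). C3 itself had no usable spot in males, as both were marked outlying. Its single female array read 1.33, which gave 0.50 ± 0.11 once the dye term was taken off (adjusted p = 0.0295). That estimate rests on 1 array. Of the 4 complement inhibitors, 3 rose and 1, Serping1, fell in males (-0.17 ± 0.05, adjusted p = 0.0231), and all 4 were called up in females. Cfi (factor I, which cleaves C3b and C4b) had 0.46 and 1.58 in males (1.02 ± 0.13, adjusted p = 0.00058) and 0.24 and 2.08 in females (1.16 ± 0.13, adjusted p = 0.00032). C4bpa and C4bpb, the chains of the C4b-binding protein, are near neighbours on chromosome 13 and rose by 0.59 ± 0.14 and 0.52 ± 0.16 in males and by 0.96 ± 0.14 and 0.79 ± 0.16 in females. C4bpa read 0.30 and 0.88 on the male arrays and 0.49 and 1.43 on the female arrays, and C4bpb read 0.52 and 0.52 in males and 0.47 and 1.11 in females. Every array of Cfi, C4bpa and C4bpb was above 0.

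The subunits of the membrane attack complex went different ways. C6 fell in both sexes, with -0.44 and -1.13 in males (-0.78 ± 0.13, adjusted p = 0.00256) and -0.82 and -0.79 in females (-0.81 ± 0.13, adjusted p = 0.00232). C8b, the beta chain of C8, had -0.90 and -0.73 in males (-0.81 ± 0.05, adjusted p = 2.61e-05) and -0.52 and -0.45 in females (-0.48 ± 0.05, adjusted p = 0.000322). Its partner chain C8a was not called, at -0.09 ± 0.08 and 0.00 ± 0.08. In females C8g, the third chain, had -0.64 and -0.21 (-0.42 ± 0.09, adjusted p = 0.00981). The pore-forming C9 had 0.63 and 0.98 in females (0.81 ± 0.15, adjusted p = 0.0038) and -0.24 and 0.57 in males (0.16 ± 0.15, adjusted p = 0.414). C9 and C5 (0.72 and 0.45, estimate 0.58 ± 0.16, adjusted p = 0.0247) thus rose in females. Neither was called in males on its brightest probe. Both other C5 probes were called up in females, at 0.61 ± 0.12 and 0.67 ± 0.15. In males the former was called up as well, at 0.38 ± 0.12 (adjusted p = 0.0324), and the latter had 0.39 ± 0.15, not called. C7 had a dim probe, was not tested in males and was not called in females.

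Of the 8 coagulation proteases and cofactors other than the contact system, 3 were called down in males and 2 in females, and none was called up by limma or had a positive ratio at an unadjusted p under 0.05. F9 fell in males, at -0.37 and -0.98 (-0.67 ± 0.10, adjusted p = 0.00142), and had 0.01 and -0.40 in females (-0.19 ± 0.10, adjusted p = 0.172). F7 fell in both, at -0.44 and -0.30 in males (-0.37 ± 0.09, adjusted p = 0.0141) and -0.51 and -0.65 in females (-0.58 ± 0.09, adjusted p = 0.00191). F10 (factor X, which cleaves prothrombin), the gene next to F7 on chromosome 16, fell by less, at -0.21 ± 0.06 in males and -0.31 and -0.14 in females (-0.23 ± 0.06, adjusted p = 0.0154). All 4 arrays of F7 and of F10 were below 0. F2, F3 (tissue factor), F5, F8 and F13b were not called, with estimates from -0.12 to 0.12 in males and from -0.05 to 0.38 in females.

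The contact system and the regulators were mixed. F12 (factor XII) had -0.51 and -0.24 in males (-0.38 ± 0.08, adjusted p = 0.0068) and -0.47 and -0.29 in females (-0.38 ± 0.08, adjusted p = 0.00672), but its second probe was not called, at 0.18 ± 0.10 and -0.04 ± 0.10. F11 rose in females, at 0.64 and 0.49 (0.57 ± 0.08, adjusted p = 0.00151), and had -0.03 and -0.44 in males (-0.23 ± 0.08, adjusted p = 0.0636). Kng1 had the highest male estimate of the members, 1.83 and 1.60 in males (1.72 ± 0.40, 3.29-fold, adjusted p = 0.0147), with the largest error too. In females it had 1 usable array, at 0.39 (1.01 ± 0.60, adjusted p = 0.231). Klkb1, the kallikrein gene next to F11, was not called.

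Of the anticoagulants, Pros1 fell in males (-0.17 and -0.45, estimate -0.31 ± 0.06, adjusted p = 0.00433) and had 0.13 ± 0.06 in females. Serpind1 (heparin cofactor II) was called down in both, at -0.48 and -0.07 in males (-0.27 ± 0.08, adjusted p = 0.032) and -0.62 and 0.06 in females (-0.28 ± 0.08, adjusted p = 0.0294). Its second female array was above 0. Proc (protein C) was called up in females at 0.37 ± 0.10, and Serpinc1 (antithrombin) was called in neither sex. All 3 fibrinolysis genes rose in females: Plg by 0.42 ± 0.06, the plasmin inhibitor Serpinf2 by 0.37 ± 0.08 and Cpb2 by 0.57 ± 0.06. In males Plg (0.20 ± 0.06) and Cpb2 (0.19 ± 0.06) were called up by less.

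Erythroid markers were called down in 3 of 3 cases in both sexes. The log2 ratios of their summed signal were -3.05 and -2.87 in males and -1.36 and -1.41 in females. Bile duct markers were called up in 3 of 6 cases in each sex. The log2 ratios of their summed signal were 1.62 and 1.10 in males and 1.23 and 1.38 in females. Stellate markers were called down in 3 of 7 cases in each sex and up in 1 in males, and platelet markers down in 2 of 4 in males and 2 of 3 in females. Endothelial markers were called up in 6 of 10 cases and down in 1 in males, and up in 6 of 9 and down in 0 in females. Of 11 macrophage markers, 3 were called up and 1 down in males, and 2 up and 1 down in females. Of 9 lymphocyte markers, 3 were called up and 1 down in each sex. The 2 neutrophil markers tested, S100a8 and S100a9, rose in both sexes, and Mpo and Ngp were not well above background. Their part in the member ratios was not tested. Of the calls, C4a, Mbl2 and C8b in males and C1r, C1s, C2, C4a, C8b, F7, F11, Plg and Cpb2 in females held in each of 13 alternatives other than median centring. With the 2 male arrays fitted alone 5 members were called, and without 1 of the 2 female arrays 13 and 16.

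**Figure D4:**
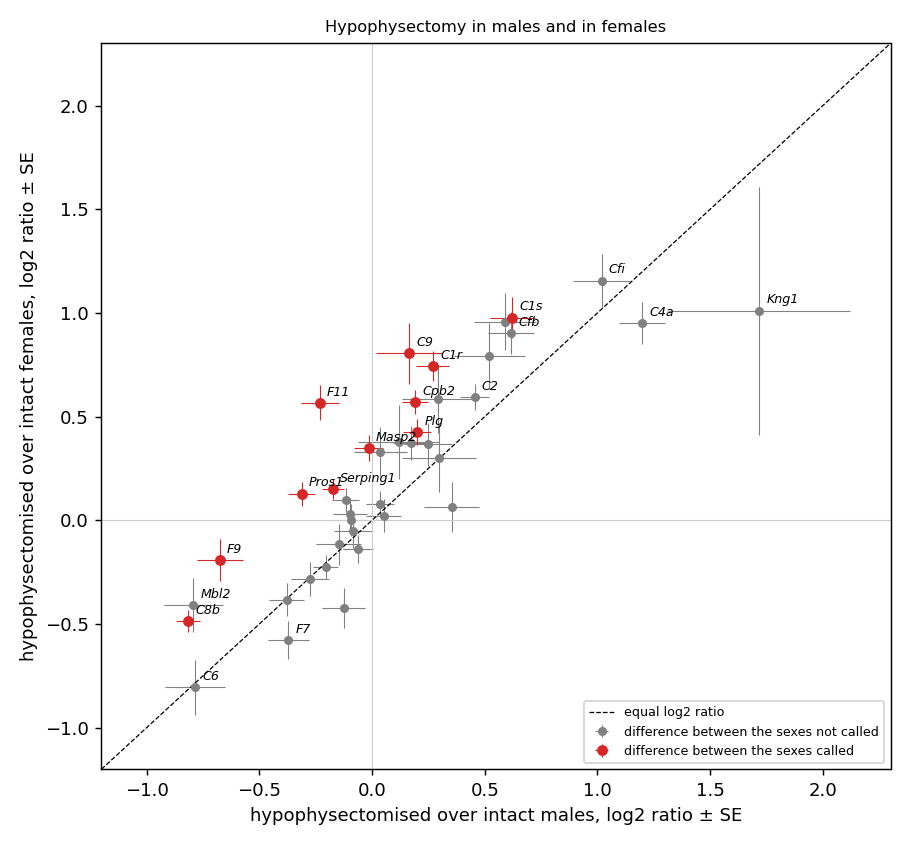
Log2 ratio of hypophysectomised over intact livers in females (vertical axis) against males (horizontal axis) for the members, with SE; red points have a called difference between the sexes and the dashed line is equality. All 11 red points lie above the line, F11 and C9 farthest from it.

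Whether the change after hypophysectomy differed between the sexes was tested as the effect in males minus that in females, averaged with the male over female ratio without a pituitary minus that in intact rats. Of 39 members tested 11 were called (28.2%, beside 13.5% of all probes), 11 with a lower value in males (7.02% of all probes) and 0 in limma with a higher one (6.48%). At an unadjusted p under 0.05, 19 were lower and 4 higher. The members' median was -0.19, beside 0.01 over all probes and -0.43 over 18 acute phase genes listed for context. F11 differed most: it changed by -0.23 ± 0.08 in males and 0.57 ± 0.08 in females, a difference of -0.79 ± 0.08 (adjusted p = 0.000717). C9 followed at -0.66 ± 0.15 (adjusted p = 0.0214), a bright probe whose male arrays of -0.24 and 0.57 straddle 0.

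C1r (-0.49 ± 0.07, adjusted p = 0.00354) and C1s (-0.37 ± 0.10, adjusted p = 0.0484) rose in both sexes and more in females. F9 fell in males, at -0.67 ± 0.10, and had a difference of -0.48 ± 0.10 (adjusted p = 0.0167). Pros1 differed by -0.43 ± 0.06 (adjusted p = 0.00234), with a fall in males and no call in females. C8b fell in both sexes, by more in males (-0.38 ± 0.05, adjusted p = 0.00259). The fibrinolysis genes Cpb2 (-0.40 ± 0.06) and Plg (-0.25 ± 0.06) rose in both and by more in females, while Masp2 (-0.34 ± 0.06) rose in females only on its brightest probe. Of its other probes, 2 were called down in both sexes, at -0.30 and -0.26 in males and -0.25 and -0.22 in females. Serping1 (-0.31 ± 0.05) was the 1 member called in opposite directions, -0.17 ± 0.05 in males and 0.15 ± 0.05 in females, from arrays at -0.84 and 0.49 in males and -0.56 and 0.86 in females. Its second probe had 0.04 ± 0.06 in males, not called, and 0.26 ± 0.06 in females, called. Serping1's male call was kept in 7 of 13 alternatives other than median centring and was lost with the mean over probes. The female call was kept in 4 of 13. C8b, F11 and Pros1 kept their call in each of 12 alternatives other than median centring. The 2 of these that left out a replicate kept a single array in each comparison without GH. Their residual spread came from the GH arrays only, so they cannot show that a call is stable. Without the replicate 1 arrays 26 members were called, 24 lower and 2 higher in males, beside 9889 of 23848 probes. Without the replicate 2 arrays 25 were called, 17 lower and 8 higher, beside 9688 of 23842 probes. Of 3 erythroid markers, 2 were called lower and 1 higher in males in this contrast.

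Livers of hypophysectomised males taken 30 to 90 min after 1 GH injection were set against livers without GH. Of 41 members 12 rose (29.3%, beside 14.3% of all probes in either direction and 7.49% upward), and 0 fell in limma (6.79% of all probes). At an unadjusted p under 0.05, 20 were higher and 0 lower. Among them were C6, C8a, C8b and C9 of the membrane attack complex and factors VII, IX and X. C7 was called too, but its probe passed the filter through the GH RNA, where it was high. The median member had 0.21, beside 0.00 over all probes.

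C6 had array ratios of 0.64 and 0.66 (0.65 ± 0.13, adjusted p = 0.0151). F9 had 0.64 and 0.65 (0.65 ± 0.10, adjusted p = 0.00503), a rise of 1.57-fold in both genes, with arrays that nearly coincide. C9 had 0.00 and 1.26 (0.63 ± 0.15, adjusted p = 0.0251), so that its rise rests on the second array and the dye term. C7, whose function is to anchor the complex in the membrane, had 0.55 and 0.52 (0.54 ± 0.10, adjusted p = 0.0101), but its probe was dim, well above background on 1 of 2 arrays in the RNA without GH, and the call is lost where both RNAs must be above background. C8b had 0.39 and 0.54 (0.47 ± 0.05, adjusted p = 0.00121) and C8a 0.42 and 0.47 (0.45 ± 0.08, adjusted p = 0.00864). The adjacent genes of these 2 chains thus rose by similar amounts, while C8g had -0.16 ± 0.09.

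F7 rose with 0.61 and 0.17 (0.39 ± 0.09, adjusted p = 0.0261) and F10 with 0.10 and 0.33 (0.22 ± 0.06, adjusted p = 0.0376). C3 was called at 0.36 ± 0.07 (adjusted p = 0.0439) and Serping1 at 0.31 ± 0.05 (adjusted p = 0.00511), with arrays on both sides of 0 for each, at -0.43 and 1.15 for C3 and -0.41 and 1.03 for Serping1. Serping1's second probe was called as well, at 0.37 ± 0.06. The last 2 were Serpinc1 (0.03 and 0.50, estimate 0.26 ± 0.06) and Masp2 (0.32 and 0.19, estimate 0.25 ± 0.06). The other 3 Masp2 probes had -0.02, 0.02 and 0.09 and were not called, and the call is lost with the mean over probes. Serpinc1's second probe had -0.13 ± 0.11. Masp1, the other lectin pathway protease, had 0.40 ± 0.12 on its brightest probe without passing the test (adjusted p = 0.0593), and 3 of its 4 other probes were called, at 0.53, 0.52 and 0.50.

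Beside these, the male hypophysectomy ratios were -0.78 for C6, -0.81 for C8b, -0.37 for F7, -0.67 for F9 and -0.21 for F10, all called, and -0.17 for Serping1, also called. Those of C9 (0.16), Serpinc1 (0.04), Masp2 (-0.02) and C8a (-0.09) were not called, and C3 and C7 were not tested there. Both comparisons hold hypophysectomised male RNA, on opposite sides of the ratio, so the values are not independent. Macrophage markers moved as well: 8 of 11 rose and 0 fell, and their summed signal was 135668 and 136014 with GH against 107016 and 119234 without. Erythroid markers rose in 2 of 3 cases and platelet markers in 2 of 5. The log2 ratios of their summed signals were 2.01 and 1.53 (erythroid) and 0.61 and 0.53 (platelet). Endothelial markers rose in 3 of 10 cases, bile duct markers fell in 2 of 7, and the 2 neutrophil markers tested rose. The part of these cells in the member ratios was not tested. Each of the 12 calls was lost when 1 of the 2 arrays was left out: 2 members (C8b and F9) were called without replicate 1 and 0 without replicate 2. With the 2 arrays fitted alone 2 were called and without the dye term 5, beside 807 and 2106 of 26357 probes.

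**Figure D5:**
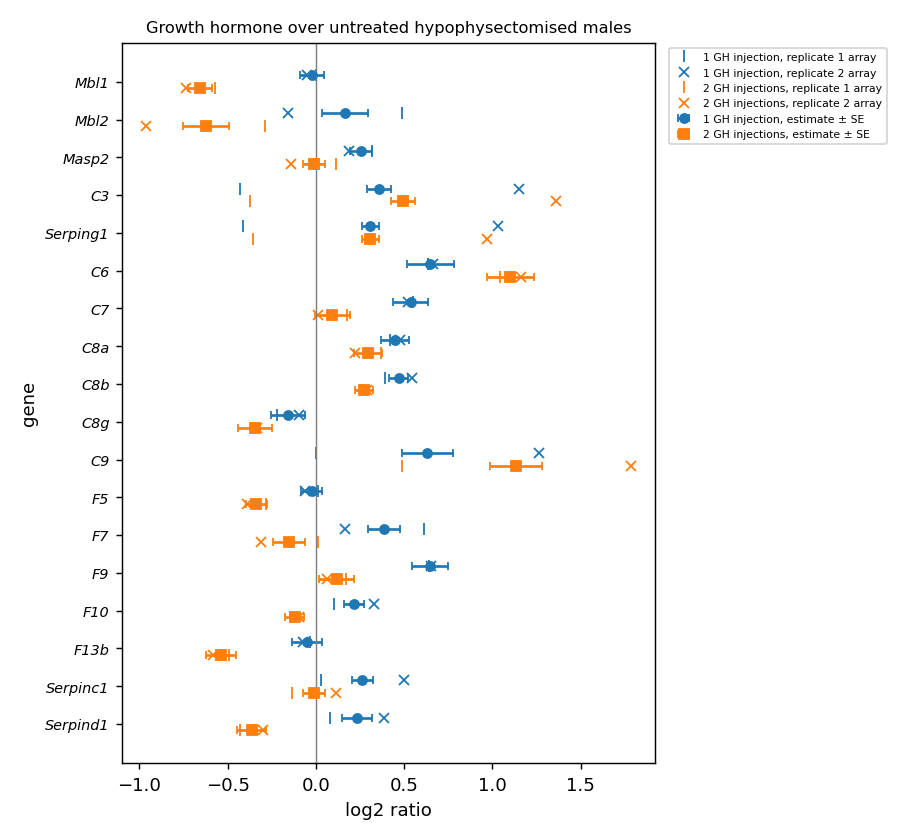
Log2 ratio over untreated hypophysectomised males after 1 (blue circles) and 2 GH injections (orange squares) for the 18 members called in either comparison; filled symbols are estimates ± SE, ticks and crosses the 2 arrays. C6 and C9 stand highest after 2 injections, and Mbl1, Mbl2 and F13b stand lowest there.

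After 2 injections 12 of 41 members were called, a share of 29.3% beside 30.9% of all probes, which is near the background. Of these 6 were up (14.6%, all probes 15%) and 6 down (14.6%, all probes 15.8%). C9 and C6 were highest, and both mannose-binding lectins, C8g, F5, F13b and Serpind1 were lower. The member median was -0.07 and that of all probes -0.01.

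C9 had 0.49 and 1.78 (1.13 ± 0.15, 2.2-fold, adjusted p = 0.000632) and C6 had 1.04 and 1.16 (1.10 ± 0.13, 2.15-fold, adjusted p = 0.000442). Both were above 0 on both arrays. C3 (0.50 ± 0.07) and Serping1 (0.31 ± 0.05) were again called from arrays on both sides of 0, at -0.37 and 1.36 for C3 and -0.36 and 0.97 for Serping1, and both turned negative with median centring. C8a (0.37 and 0.22, estimate 0.30 ± 0.08, adjusted p = 0.0221) and C8b (0.25 and 0.29, estimate 0.27 ± 0.05, adjusted p = 0.00502) also turned negative with median centring.

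Mbl1 had -0.57 and -0.74 (-0.66 ± 0.07, adjusted p = 0.000207) and Mbl2 -0.29 and -0.96 (-0.62 ± 0.13, adjusted p = 0.00723). F13b, the carrier subunit of the factor XIII that cross-links fibrin, had -0.49 and -0.58 (-0.54 ± 0.08, adjusted p = 0.00163). Those 3 were below 0 on both arrays. Serpind1 had -0.43 and -0.30 (-0.36 ± 0.08, adjusted p = 0.0109). F5, the cofactor of factor X, had -0.28 and -0.39 (-0.34 ± 0.06, adjusted p = 0.00306), with a second probe at -0.01 ± 0.15. C8g had -0.35 and -0.34 (-0.34 ± 0.09, adjusted p = 0.0253). The summed macrophage markers read 119519 and 114077 with GH against 111397 and 124223 without, both neutrophil markers tested rose, and of 3 erythroid markers 2 rose and 1 fell. Their part in the ratios was not tested. C6, Mbl1 and F13b held in each of 13 alternatives other than median centring, and without the replicate 1 or the replicate 2 array 7 and 5 members were called.

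The 2-injection RNA was set against the 1-injection RNA through the hypophysectomised male RNA that both comparisons share. Of 41 members 6 were called (14.6%, beside 10.4% of all probes), 0 higher in limma (5.56%) and 6 lower (4.82%) after 2 injections. At an unadjusted p under 0.05, 2 were higher and 16 lower. The differences were -0.79 ± 0.18 for Mbl2 (adjusted p = 0.0336), -0.63 ± 0.10 for Mbl1 (adjusted p = 0.00659), -0.60 ± 0.12 for Serpind1 (adjusted p = 0.0174), -0.54 ± 0.13 for F7 (adjusted p = 0.0352), -0.49 ± 0.12 for F13b (adjusted p = 0.0379) and -0.34 ± 0.08 for F10 (adjusted p = 0.0334). F7 and F10 had risen after 1 injection and after 2 injections read 0.01 and -0.31 (F7) and -0.15 and -0.10 (F10). F9 had 0.12 ± 0.10 after 2 injections, a difference of -0.53 ± 0.14 that missed the threshold (adjusted p = 0.0531). C6 and C9 were not called as different, at 0.45 ± 0.19 and 0.50 ± 0.21. Time since the last injection, number of injections and animals differ together between these pools and cannot be told apart. The replicate 1 deviations of the 2 GH comparisons correlated at 0.91, and the model did not pair their arrays. Both comparisons had the same dye orientation, and these deviations still held the dye effect that the model fits. The correlation therefore cannot show whether the arrays pair. The errors and missed thresholds of these differences leave any pairing out. With a replicate block 3 calls remained, as Mbl2, F7 and F13b were lost. No call was kept without either array, and with the replicate 1 or replicate 2 arrays of both comparisons left out 0 members were called.

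Other genes of the pathways were taken from 2 lists, complement regulators and receptors (22 of 25 on the array) and coagulation and fibrinolysis (28 of 30). In intact males over females 4 complement genes were called up and 5 down of 21 tested, and 5 and 3 of 25 coagulation genes. The complement regulator Cd46 had 1.62 and 2.18 (1.90 ± 0.08), far above 0. The protease trap A2m had 0.44 and 1.65 (1.05 ± 0.22), Serpina1 (antitrypsin) 1.69 and -0.07 (0.81 ± 0.14), and Vtn (vitronectin, which blocks the membrane attack complex) 1.49 and 0.02 (0.76 ± 0.06). After hypophysectomy Cd46 had -1.18 ± 0.08 in males and 0.31 ± 0.08 in females, a difference of -1.50 ± 0.08 (adjusted p = 1.31e-05). It is a larger sex dependence than that of any member, while the lowest value in the coagulation list was -1.84.

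Of the complement list 2 were called up and 4 down of 21 in males and 7 and 2 of 21 in females, and of the coagulation list 8 and 3 of 25 and 10 and 1 of 24. Serpina5, the protein C inhibitor, had 1.26 and 1.31 in males (1.29 ± 0.10) and 1.58 and 2.01 in females (1.80 ± 0.10). Vkorc1, which recycles the vitamin K needed for factors II, VII, IX and X, had -0.59 ± 0.11 in males and -1.32 and -0.88 in females (-1.10 ± 0.11). Serpina1 fell in males (-1.20 ± 0.14). A2m (1.85 and 2.02, estimate 1.93 ± 0.22) and Cr1l, a regulator that inactivates C3 convertases in rodents (0.90 ± 0.09), rose in females.

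After 1 GH injection 8 complement genes rose and 2 fell of 22, and 8 coagulation genes rose and 1 fell of 26; after 2 injections these were 3 and 2 of 22 and 8 and 6 of 26. A2m had 1.16 and 1.32 (1.24 ± 0.22) after 1 and 2.34 and 2.34 (2.34 ± 0.22) after 2. The difference missed the threshold with the arrays unpaired (adjusted p = 0.0612). Serpina5 fell, to -1.16 and -1.14 (-1.15 ± 0.10) after 1 and -1.94 and -1.92 (-1.93 ± 0.10) after 2, where it was lower (adjusted p = 0.0139). The fibrinogen chains, which form the clot itself, had estimates of 1.07 ± 0.09 (Fga) and 1.03 ± 0.11 (Fgg) after 1 and 1.80 ± 0.09 and 1.73 ± 0.16 after 2. Their probes are bright, with array ratios of 0.18 and 1.96 for Fga after 1 injection. Of 18 acute phase genes listed for context, which share A2m and the fibrinogens, 9 rose and 0 fell after 1 injection and 14 rose and 1 fell after 2.

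In hypophysectomised males over females 2 of 21 complement genes were called, both lower in males. They were Vsig4, a complement receptor of liver macrophages that is also in the macrophage marker list (-0.51 ± 0.05), and Cfp, the stabiliser of the alternative convertase (-0.33 ± 0.06). Of the 41 members, Masp1, F2, F3, F8 and Klkb1 were called in none of the comparisons. Around the loop of the 4 RNAs without GH, the signed ratios of 40 members summed to between -0.13 and 0.12, with a median size of 0.06.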

How the data were processed

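The deposited scanner files hold mean and local background intensity per spot and colour, read, per the file headers, with Agilent Feature Extraction 9.1.3.1 (45018 spots, 1639 of them controls, 0 saturated). They also hold processed signals, an intensity after that software's background subtraction and dye normalization, with a deposited log10 ratio. The authors' series-wide values follow a log2 ratio with channel 2 on top (slopes 0.998 to 1.003 and Spearman rho 0.847 to 0.997 against the scanner ratios, column medians -0.13 to 0.15), and their centring is not stated.

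Intensities were background-corrected (normexp, offset 50) and loess-normalized within arrays in limma 3.58.1 (R 4.3.3, data.table package, version 1.17.8), leaving out outlying spots. Ratios were turned to channel 2 over channel 1 from the dyes in the labels. Testing needed a signal well above background for 1 or both RNAs on each array of the comparison (29006 probes in all). Limma fitted 1 coefficient per comparison and a dye term to 12 arrays (5 residual degrees of freedom, prior 3.08), and Benjamini-Hochberg adjustment ran over all tested probes. The sex dependence is the mean of its 2 estimates around the loop of 4 RNAs. The arrays are separate hybridisations of pools, so p-values measure the spread between arrays. The fit was tested on simulated data. Values per array were given, per comparison, for up to 8 called members each way with the largest ratios and for their partners, and up to 4 called other pathway genes were named. Members and lists were chosen with earlier results of these data known.

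Alternatives were median centring, processed signals, the authors' values, offset 10, no dye term, a replicate block, a slide block (its correlation was 0.0137), other filters, the mean over a gene's probes, arrays fitted alone and each array left out. Outlying spots kept, and calls with the same direction on both arrays, were chosen after seeing the data.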

Additional observations from a re-analysis of the deposited data

Results flagged for a closer look

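For 11 members the change after hypophysectomy differed between the sexes by the test of the difference itself (limma, adjusted p under 0.05). The effect in males minus that in females was -0.79 for F11, -0.66 for C9, -0.49 for C1r, -0.48 for F9, -0.43 for Pros1, -0.40 for Cpb2, -0.38 for C8b, -0.37 for C1s, -0.34 for Masp2, -0.31 for Serping1 and -0.25 for Plg on the log2 scale. All 11 values are below 0, beside 7.02% of all probes called in that direction. In the same contrast 9 of 18 acute phase genes were called lower in males and 0 higher. Of the other pathway genes, 4 of 21 complement genes were lower and 0 higher, and 6 of 24 coagulation genes lower and 1 higher. With the replicate 1 or the replicate 2 arrays left out, 2 and 8 members were called in the other direction. Groups of 2 arrays are too small for the test of a sample far from the rest of its group, which was not run.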

How the results depend on the processing

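Median centring in place of loess left 0 members called in each of the 6 comparisons, in the sex dependence and between 2 and 1 injections (unadjusted p under 0.05: 2 for intact males over females, 4 and 6 for hypophysectomy in males and females, 0 for hypophysectomised males over females, 1 and 7 for 1 and 2 injections, and 0 for both contrasts). Calls over all probes fell too. Median centring left 261 of 25712 in intact males over females (3981 with loess). For hypophysectomy it left 345 in males (9737) and 370 in females (8835). It left 0 after 1 injection (3764), 75 after 2 (8773), 118 for sex dependence (3220) and 0 between injections (2720). It reversed Serping1 (-0.0045), C8b (-0.060) and Plg (-0.026) in intact males over females, and C3 (-0.12), Serping1 (-0.28), C8a (-0.13) and C8b (-0.22) after 2 injections. It moved the median of all probes to -0.13 and that of the members to -0.19 in intact males over females, and to -0.11 and -0.53 after 2 injections. The cause was not tested.

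Calls of intact males over females numbered 12 and fell to 6 with processed signals, 6 with the value table, 7 with offset 10 and 3 without the dye term. Over all probes these counts were 3611, 3604, 3598 and 2600, beside 3981. Hypophysectomy gave 8 calls beside 21 in males and 14 beside 26 in females without the dye term, and 5 in males with the 2 arrays fitted alone. Over all probes these were 7109 beside 9737, 6349 beside 8835, and 2687. Without the dye term 1 injection gave 5 calls and 2 injections 6, beside 12 each, and with 2 arrays alone 2 and 3. Over all probes these were 2106 beside 3764 and 6557 beside 8773, and 807 and 3648 with 2 arrays alone. Sex dependence had 7 calls with processed signals, 7 with the value table and 3 without the dye term, beside 11. Between 2 and 1 injections 6 calls became 3 with offset 10 and 1 without the dye term. All probes gave 2559, 2563 and 1889 beside 3220 for sex dependence, and 1826 and 1228 beside 2720 between injections.

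Leaving out 1 array of each comparison gave 2 to 3 calls for intact males over females, 12 to 17 and 13 to 16 for hypophysectomy in males and females, 0 to 2 for 1 injection, 5 to 7 for 2 injections, 25 to 26 for sex dependence (over all probes 9889 of 23848 and 9688 of 23842) and 0 with either array left out between injections. The lone array left was taken to vary like the other comparisons. For sex dependence those were the GH comparisons only, so its counts cannot show that calls are stable. The deviations of replicate 1 correlated between comparisons from -0.69 to 0.91, so they share structure. Not every pair was above 0.1, but opposite dyes, or an RNA on opposite sides of 2 ratios, can make a correlation negative. The dye effect was not taken off these deviations, so equal dyes can make a correlation positive. The correlations therefore cannot decide on pairing, whatever their sign. No label ties the numbers, and the arrays were not treated as paired. Without GH, the replicate number is also the slide. With a replicate block the counts were 9, 20, 24, 0, 11 and 12 in the 6 comparisons, 10 for sex dependence and 3 between injections. The slide block, other filters, the mean over probes and both settings added later left each count within 1.5 times its first value. No other direction turned.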

Other observations

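Of the 5 Masp1 probes, 3 were called up after 1 GH injection, at 0.53, 0.52 and 0.50, and the brightest was not. After 2 injections 1 was called up, at 0.56, and in females after hypophysectomy 1, at 0.47. The 4 Masp2 probes split after hypophysectomy in females, 2 called up (0.35 and 0.20) and 2 called down (-0.25 and -0.22), and the latter pair was also called down in males (-0.30 and -0.26).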
